A study of Homo sapiens with 18 samples.

Results

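Untreated cells of the human multiple myeloma lines KMS12-BM and JJN3 were compared across all genes. The libraries were chosen by their labels alone: 3 of KMS12-BM and 3 of JJN3, each given only DMSO, the solvent of the compounds, which makes 6 of the 18 libraries in the series. The other 12 libraries came from the same lines after 24 h with TG003, an inhibitor of CLK splicing kinases (0.4 mM in both lines), or with amiloride, a blocker of sodium channels and sodium-proton exchangers (0.1 mM for KMS12-BM, 0.4 mM for JJN3). The labels spell the first line KMS-12, KMS12M or KMS12-BM, and give no duration for the DMSO samples. Cells grew in RPMI 1640 medium with 20% fetal bovine serum for KMS12-BM and 10% for JJN3, so a difference between the lines cannot be told apart from a difference in serum. Each line stands for 1 donor's tumour, and nothing in the labels tells if its 3 libraries were separate cultures. The p-values therefore measure only the spread between these samples, which may be technical.

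Myeloma is a cancer of plasma cells, the antibody-secreting end stage of the B lineage. In most tumours a D-type cyclin is raised. In one class a translocation puts the cyclin gene CCND1 beside the enhancers of the immunoglobulin heavy-chain locus, and in another the same enhancers are joined to MAF, a bZIP transcription factor whose reported targets include CCND2, ITGB7 and NUAK1. KMS12-BM is known as a line of the first class and JJN3 as a line of the second.

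The KMS12-BM libraries held 30129927 to 50570234 reads in genes, and the JJN3 libraries 25265042 to 37551639. The lines were close in the share of reads in their 10 most abundant genes, at 5.02% to 5.49% in KMS12-BM and 4.94% to 5.1% in JJN3. They differed in the share from mitochondrial genes, at 3.86% to 4.25% against 2.06% to 2.61%. Replicate libraries correlated across genes at a Pearson r of 0.9928 to 0.9963 on log CPM. By counts, KMS12-BM replicate 1 lay further from its replicates (chi-square per degree of freedom 26.83 and 35.76) than they lay from each other (15.28), and the JJN3 pairs lay between 18.38 and 22.67. Without that library 13123 genes were called in place of 12732. The TG003 libraries, used only at the end, stood apart from the other 12: processed pseudogenes took 0.292% to 0.47% of their reads in genes against 4.65% to 5.92%, reads at more than 1 place 7.79% to 9.13% against 13.3% to 17.4%, and reads in no gene 6.42% to 8.17% against 11.4% to 13.6%. Levels are given as CPM, read counts scaled to a common (TMM-normalised) library size. The scaling was over the 6 DMSO libraries for levels with DMSO and over all 18 libraries for levels with a compound. Differences are log2 values, KMS12-BM minus JJN3, followed by ± and their standard error from edgeR's quasi-likelihood test, with p-values adjusted by Benjamini-Hochberg over all genes tested.

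The lines differed at most of the genes they use. Of 16222 genes tested, 12732 (78.5%) passed an adjusted p of 0.05, 6193 (38.2%) higher in KMS12-BM and 6539 (40.3%) higher in JJN3. A further condition of at least a 2-fold difference left 3218 genes (19.8%) higher in KMS12-BM and 3740 (23.1%) higher in JJN3. The CPM ranges of the lines did not overlap at 80.7% of the genes tested. The median difference over all genes was -0.036, which the TMM scaling itself holds near 0. The medians of the lists described below are therefore relative to that common centre. Their counts of called genes can be read against the shares over all genes. In the plot of all tested genes, the spread was widest among genes of low level, and CD9, IGHD, CCND1 and GSTP1 lay far above 0 while NDRG1, HGF, MAF and HLA-DRA lay far below.

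**Figure D1:**
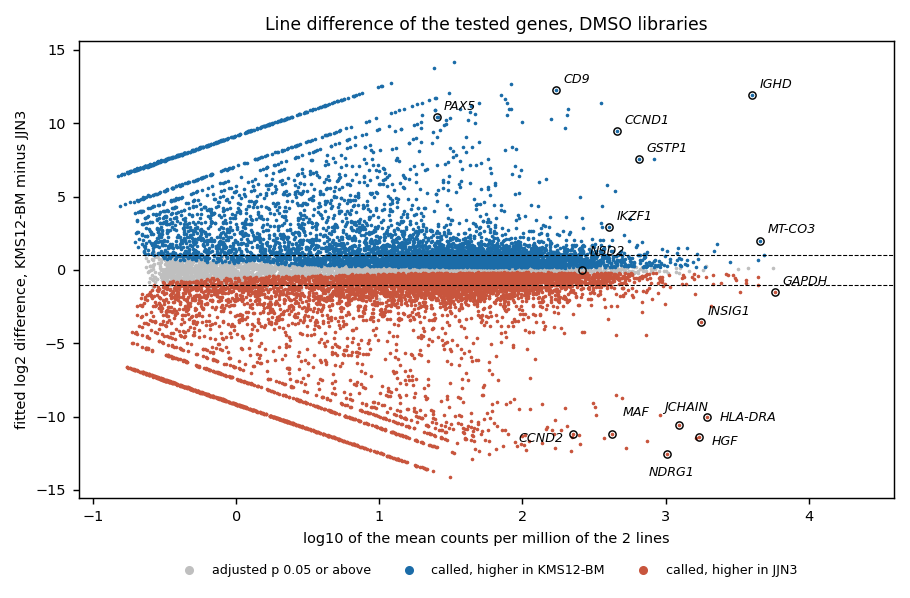
Fitted log2 difference between the lines (KMS12-BM minus JJN3) against the log10 mean CPM of the lines for the tested genes of the DMSO libraries. Blue and red points are genes called higher in KMS12-BM or in JJN3 (adjusted p under 0.05), grey points were not called, dashed lines mark a 2-fold difference, and 16 genes are ringed. The slanted rows of points at either edge are genes with 0 or a few counts in the other line, whose fitted values depend on the prior count. NSD2 sits at 0.01 and GAPDH at -1.49.

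Each line held the D-type cyclin of its class. CCND1 was read at 1126, 839 and 795 CPM in the KMS12-BM libraries and at 1.26, 1.48 and 1.01 CPM in those of JJN3. CCND2 showed the opposite pattern, with 449, 409 and 491 CPM in JJN3 and at most 0.297 CPM in KMS12-BM. In bulk RNA a low level in all cells cannot be told apart from a high level in few of them. These differences were 9.49 ± 0.21 (adjusted p = 8.32e-10) for CCND1 and -11.21 ± 0.20 (adjusted p = 1.46e-10) for CCND2, and the lines did not overlap. CCND3, the remaining D-type cyclin, was read in both, at 30.4 ± 2.19 CPM in KMS12-BM and 56.3 ± 1.86 CPM in JJN3 (SD, n = 3). MYEOV, a neighbour of CCND1 on chromosome 11, was read at 12.4 to 14.4 CPM in KMS12-BM and had 2 counts in all of JJN3, a ratio of 597 with a counting interval of 165 to 4937.

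MAF itself was read at 715, 816 and 1000 CPM in JJN3 and at 0.429, 0.144 and 0.5 CPM in KMS12-BM, a difference of -11.17 ± 0.29 (adjusted p = 6.83e-09). The related factor MAFA followed on a lower scale, at 12.4 CPM in JJN3 against 0.0334 CPM in KMS12-BM. NSD2, the histone methyltransferase gene joined to the heavy-chain locus in another class of myeloma, was level: 266, 255 and 265 CPM in KMS12-BM and 260, 267 and 257 CPM in JJN3 (difference 0.01 ± 0.06, adjusted p = 0.94). FGFR3, its partner in that class, stayed at or below 0.506 CPM on average in either line. MYC was high in both lines, at 1451 ± 93.7 CPM in KMS12-BM and 1918 ± 41.8 CPM in JJN3 (SD, n = 3), and the difference of -0.40 ± 0.07 passed the test (adjusted p = 0.00057). WWOX, the gene that spans the fragile site beside MAF on chromosome 16, had a mean of 5.77 CPM in JJN3 and 0 counts in KMS12-BM. Of the 15 tested genes in the list of D-type cyclins and genes of recurrent myeloma translocations, 4 were called higher in KMS12-BM and 9 higher in JJN3, with a median of -0.40.

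**Figure D2:**
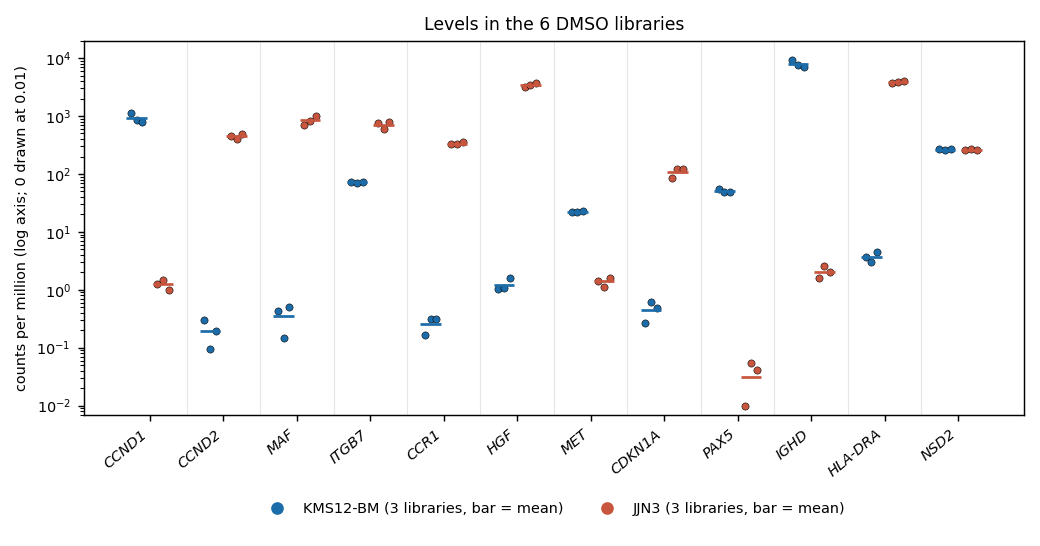
CPM (log axis, 0 drawn at 0.01) of 12 genes in each of the 6 DMSO libraries, with the mean of each line as a bar. CCND1, MET, PAX5 and IGHD sit higher in all 3 KMS12-BM libraries, CCND2, MAF, ITGB7, CCR1, HGF, CDKN1A and HLA-DRA in all 3 JJN3 libraries, and NSD2 overlaps at 255 to 267 CPM.

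Genes linked to MAF in myeloma were higher in JJN3 almost without exception. Of the 8 in the list, 7 were tested, 6 were called higher in JJN3, all by at least 2-fold, and none was higher in KMS12-BM. Their median was -10.24. NUAK1, a kinase of the AMPK family, had 95 to 109 CPM in JJN3 and 5 counts in all of KMS12-BM. CCR1, a chemokine receptor, was at 332, 323 and 351 CPM in JJN3 and no higher than 0.312 CPM in KMS12-BM. TLR4, the receptor for bacterial lipopolysaccharide, averaged 83.3 CPM against 0.0462 CPM, and SMARCA1, a chromatin remodeller, 13.4 CPM against 0.008 CPM. ITGB7, the integrin chain that pairs with the alpha-4 chain, was the only one of the 6 called genes clearly used by both lines. Its levels were 72.2, 70.4 and 71.5 CPM in KMS12-BM and 753, 607 and 785 CPM in JJN3, a difference of -3.32 ± 0.11 (adjusted p = 3.81e-09). DEPTOR, an inhibitor of mTOR, overlapped at 26.3 to 27 CPM in KMS12-BM and 25.6 to 34 CPM in JJN3 (adjusted p = 0.21). It passed without JJN3 replicate 1 (difference -0.25, adjusted p = 0.0426). CX3CR1 was not tested, with 27 counts in KMS12-BM and 16 in JJN3.

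The B-lineage genes were called in both directions with large differences, more of them higher in KMS12-BM. Of 29, 19 were tested and all 19 were called, 11 higher in KMS12-BM and 8 higher in JJN3, with a median of 3.90. PAX5, the factor that holds B-cell identity and is shut off in plasma cells, was read at 54.1, 48.1 and 48.2 CPM in KMS12-BM and had 3 counts in all of JJN3, a ratio of 1494 (counting interval 511 to 7245). Several genes of the B-cell receptor pathway were also higher in KMS12-BM. CD79A, a signalling chain of the receptor, averaged 61.7 CPM in KMS12-BM and 0.203 CPM in JJN3. BTK, the kinase downstream of it, averaged 197 CPM against 0.192 CPM, and BLNK, the adaptor between them, 94.4 CPM against 0.666 CPM. SPI1, the transcription factor PU.1, was read at 11.9 to 18.8 CPM in KMS12-BM and had 0 counts in JJN3, at least 433-fold higher with a floor of 3 counts for the 3 libraries together.

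Other B-cell genes were low or ran the other way. CD79B, the partner chain of CD79A, was higher in JJN3 (68.2 CPM against 31.5 CPM), as were BANK1 (8.19 CPM against 0.104 CPM), BACH2 (30.4 CPM against 8.35 CPM) and the kinase LYN (179 CPM against 84.7 CPM). MS4A1, which encodes CD20, averaged 3.21 CPM in KMS12-BM and 0.216 CPM in JJN3. EBF1 had no counts in either line, and BLK and CD22 stayed below 0.2 CPM. The B-cell genes MS4A1, BLK and CD22 were thus at or near 0 in JJN3, and MS4A1 alone of these reached 1 CPM in KMS12-BM.

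Both lines carried the core plasma-cell programme, with different surface markers. IRF4, the factor on which myeloma cells depend, was at 1120, 1094 and 1150 CPM in KMS12-BM and 1037, 868 and 830 CPM in JJN3, a difference of 0.30 ± 0.09 (adjusted p = 0.0127). Without JJN3 replicate 2 it missed the threshold (adjusted p = 0.0512). PRDM1, which ends the B-cell programme, was 83.2 CPM against 169 CPM, XBP1, which drives secretory capacity, 288 CPM against 426 CPM, and the coactivator POU2AF1 219 CPM against 687 CPM. MZB1, a chaperone of immunoglobulin, was higher in KMS12-BM at 312 CPM against 198 CPM. TNFRSF17, the B-cell maturation antigen, overlapped, with 97.3 to 135 CPM in KMS12-BM and 90.8 to 107 CPM in JJN3 (0.25 ± 0.12, adjusted p = 0.0784). It passed without KMS12-BM replicate 1 (0.39, adjusted p = 0.00509). Of the 24 plasma-cell genes, all were tested, 9 were called higher in KMS12-BM and 13 higher in JJN3, with a median of -0.44. The shares over all genes were 38.2% and 40.3%.

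CD38 and SDC1, the surface antigens by which plasma cells are usually recognised, ran in opposite directions. CD38 was read at 101, 84.1 and 105 CPM in KMS12-BM and at 3.22, 4.23 and 5.1 CPM in JJN3 (4.53 ± 0.16, adjusted p = 1.14e-08). SDC1, which encodes the proteoglycan CD138, was at 13.3, 13.6 and 12.5 CPM in KMS12-BM and 145, 154 and 169 CPM in JJN3 (-3.57 ± 0.09, adjusted p = 6.43e-10). The costimulatory receptors CD27 and CD28 divided in the same way. CD27 had 134 to 174 CPM in KMS12-BM and 4 counts in all of JJN3, and CD28 had 14.4 to 18.5 CPM in JJN3 and at most 0.456 CPM in KMS12-BM. POU2F2, a B-cell octamer factor, was at 112 CPM against 2.25 CPM. The elongation factor ELL2, which favours the secreted form of immunoglobulin, was at 28.2 CPM against 237 CPM. SLAMF7 was low in both, at 0.645 CPM in KMS12-BM and 1.92 CPM in JJN3.

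The immunoglobulin constant genes were read from different classes in the lines. In JJN3, IGHG1 was read at 425, 369 and 393 CPM, IGKC at 277, 261 and 339 CPM, and JCHAIN, which joins IgA and IgM units, at 2240, 2493 and 2685 CPM. In KMS12-BM none of these passed 2 CPM. The exception was IGHD, the delta heavy-chain gene: 9416, 7704 and 7101 CPM in KMS12-BM against 1.58, 2.59 and 2.02 CPM in JJN3 (11.91 ± 0.22, adjusted p = 2.53e-10). Its neighbour IGHM averaged 0.459 CPM in KMS12-BM. No light-chain constant gene was read there above 0.14 CPM on average. IGHA1 was low in both lines, at 0.592 CPM in KMS12-BM and 2.71 CPM in JJN3. Of 14 constant genes tested, 3 were called higher in KMS12-BM and 11 higher in JJN3. The fitted median of -7.46 became -5.06 when genes at or below 3 counts in a line were set to their bound. Heavy-chain genes of the same class are near-identical copies, so reads may be split among them. The strand setting of the counting was not stated in the sources used here.

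The genes of MHC class II presentation summed to 978 to 1251 CPM in KMS12-BM and to 12260 to 12768 CPM in JJN3. Class II molecules are heterodimers that show peptides to CD4 T cells. CD74 encodes the invariant chain that guards their groove, and CIITA is the coactivator that switches their genes on through a shared promoter module, of which the inverted CCAAT element called the Y box is a part. To show that module, the 250 bases before the start of HLA-DRB1, HLA-DQB1, HLA-DPB1 and CD74 are given 5′ to 3′ from RefSeq (GRCh38.p14). Capitals mark the letters CCAAT or, on the other strand, ATTGG.
HLA-DRB1 (chr6:32589849-32590098, minus strand): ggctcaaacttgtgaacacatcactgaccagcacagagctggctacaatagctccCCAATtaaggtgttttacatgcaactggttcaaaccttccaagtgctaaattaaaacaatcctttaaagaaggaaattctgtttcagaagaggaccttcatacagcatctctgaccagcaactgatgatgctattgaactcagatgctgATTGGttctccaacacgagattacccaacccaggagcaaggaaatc
HLA-DQB1 (chr6:32666658-32666907, minus strand): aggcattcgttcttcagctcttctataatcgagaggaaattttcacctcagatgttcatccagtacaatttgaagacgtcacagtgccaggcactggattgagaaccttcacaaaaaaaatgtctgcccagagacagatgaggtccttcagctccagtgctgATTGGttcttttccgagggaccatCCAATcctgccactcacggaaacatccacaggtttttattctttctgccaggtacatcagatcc
HLA-DPB1 (chr6:33075740-33075989, plus strand): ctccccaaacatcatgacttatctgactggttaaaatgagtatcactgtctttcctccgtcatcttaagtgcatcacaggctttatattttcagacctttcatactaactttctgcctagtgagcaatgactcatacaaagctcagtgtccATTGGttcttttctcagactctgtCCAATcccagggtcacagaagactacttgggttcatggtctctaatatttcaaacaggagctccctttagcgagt
CD74 (chr5:150412911-150413160, minus strand): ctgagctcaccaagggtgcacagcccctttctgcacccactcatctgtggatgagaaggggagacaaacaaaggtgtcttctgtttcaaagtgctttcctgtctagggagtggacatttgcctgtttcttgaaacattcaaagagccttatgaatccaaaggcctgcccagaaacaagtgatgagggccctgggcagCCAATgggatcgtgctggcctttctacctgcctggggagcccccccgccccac

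The letters were found on either strand in 12 of the 20 promoter entries matched to 15 of the 18 class II genes, and in 32% of the 35116 entries of the table at the same length. In the reverse orientation (ATTGG) they began 46 bases before the start of HLA-DRB1, 88 bases before that of HLA-DQB1 and 99 bases before that of HLA-DPB1. In CD74 the match was in the forward orientation, 53 bases before the start. A match is a description of the letters and was not tested for binding. The letters TGCTGA, a part of the MAF recognition element, were looked for in the same way before the genes linked to MAF. They were found on either strand in 14% of all entries and in 1 of the 8 entries of 6 such genes, a start site of CX3CR1. A wider region was not searched.

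The class II chains were far higher in JJN3. Of 18 genes, all tested, 14 were called higher in JJN3, 12 of them by at least 2-fold, and 3 higher in KMS12-BM, with a median of -3.90. HLA-DRA, the invariant alpha chain of HLA-DR, was read at 3735, 3883 and 4107 CPM in JJN3 and at 3.63, 2.98 and 4.42 CPM in KMS12-BM (-10.04 ± 0.16, adjusted p = 1.05e-10). HLA-DRB1 averaged 1489 CPM against 0.419 CPM, HLA-DRB5 435 CPM against 0.0886 CPM, HLA-DQA1 895 CPM against 2.39 CPM and HLA-DPA1 620 CPM against 1.14 CPM. CIITA differed far less than the chains: 36.7, 26.6 and 30.9 CPM in KMS12-BM and 87.6, 90.2 and 76.9 CPM in JJN3 (-1.44 ± 0.12, adjusted p = 3.03e-06). CD74 was also still read in KMS12-BM, at 550 to 813 CPM against 3427 to 3607 CPM.

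The other factors and enzymes of the list differed far less than the chains. RFX5, RFXAP and RFXANK, which bind the promoter module, stood at -0.70, 0.67 and 0.88, and the protease gene CTSS at 0.01, which did not pass. HLA-DOB, an inhibitor of peptide loading, was the class II chain higher in KMS12-BM, at 3.57 CPM against 0.707 CPM. The HLA genes are polymorphic and near-identical to one another, so the counts depend on how each line's alleles match the reference, which was not tested.

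Class I presentation was also higher in JJN3, by less. Of 18 genes tested, 15 were called higher in JJN3 and 3 in KMS12-BM, with a median of -0.94. HLA-B, a class I heavy chain, was 375 CPM against 1076 CPM and HLA-C 148 CPM against 593 CPM. B2M, their common light chain, differed by -0.35 ± 0.07, at 1901 CPM against 2427 CPM. HLA-F reached 31.6 CPM in JJN3 and 0.208 CPM in KMS12-BM, and PSMB10, an immunoproteasome subunit, 42.8 CPM against 5.32 CPM. ERAP2 and PDIA3, a trimming peptidase and a chaperone, were higher in KMS12-BM by 0.92 and 0.96.

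Interferon-stimulated genes were called in both directions, as were all genes (38.2% higher in KMS12-BM and 40.3% higher in JJN3). Of 23 tested, 9 were called higher in KMS12-BM and 12 higher in JJN3, with a median of -1.33. SAMD9L, an antiviral gene, averaged 128 CPM in JJN3 against 2.22 CPM in KMS12-BM. XAF1 had 14.7 CPM in JJN3 against 1 count in KMS12-BM. OAS2, which senses double-stranded RNA, ran the other way, at 194 CPM in KMS12-BM and 1.73 CPM in JJN3, as did IFITM1 to IFITM3 by 1.23 to 1.66. STAT2 and IRF7 did not pass, at -0.05 and -0.00. Several classical members, among them IFIT1, MX1 and RSAD2, stayed below 0.3 CPM in both lines.

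All tested genes of the growth factor and cytokine receptor list differed between the lines, where 78.5% of all genes tested did. HGF, hepatocyte growth factor, was read at 3214, 3440 and 3707 CPM in JJN3 and at 1.02, 1.08 and 1.58 CPM in KMS12-BM (-11.42 ± 0.17, adjusted p = 8.82e-11). MET, its receptor, was higher in the line with little HGF: 22.1, 22.4 and 22.9 CPM in KMS12-BM against 1.44, 1.13 and 1.62 CPM in JJN3 (4.03 ± 0.13, adjusted p = 4.54e-09). In the insulin-like growth factor pair the ligand was again higher in JJN3 and the receptor in KMS12-BM. IGF1 was at 103 to 120 CPM in JJN3 and had 4 counts in KMS12-BM, while its receptor IGF1R was 73.2 CPM in KMS12-BM and 35.8 CPM in JJN3.

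The interleukin-6 receptor chains, which carry a main survival signal of myeloma cells, were also unequal. IL6R, the chain that binds the cytokine, was at 245, 247 and 241 CPM in KMS12-BM and 12.4, 10.2 and 12.8 CPM in JJN3. IL6ST, the shared signalling chain, was at 22, 21.6 and 23.6 CPM in KMS12-BM and 232, 257 and 280 CPM in JJN3. Neither line made the cytokine at a readable level, with IL6 at 0 and 0.00899 CPM. SOCS3, a feedback inhibitor of the pathway, was 0.52 CPM against 16.2 CPM. TNFRSF13B, a receptor for the survival factors BAFF and APRIL, had 26 to 29.3 CPM in JJN3 and 0 counts in KMS12-BM, at least 1129-fold lower. IL21R was higher in KMS12-BM (95.8 CPM against 9.68 CPM), and the receptor tyrosine kinase genes KIT and FGFR1 were read at 26.3 and 43.6 CPM in JJN3 and below 0.03 CPM in KMS12-BM. Of 26 genes tested, 9 were called higher in KMS12-BM and 17 higher in JJN3, and all 26 passed.

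The list of RAS, MAPK and PI3K signalling held genes far apart between the lines and genes that were not. DUSP6, the phosphatase that switches off ERK, was at 175, 195 and 200 CPM in JJN3 and at 0.231, 0.24 and 0.288 CPM in KMS12-BM (-9.51 ± 0.13, adjusted p = 8.12e-11). SPRY2, SPRED1 and DUSP4, which restrain the same cascade, averaged 29.1, 42.8 and 34.8 CPM in JJN3 and had 1 or 2 counts each in KMS12-BM. SPRED2, DUSP5, ETV4 and PHLDA1 were higher in JJN3 by 8.49, 2.69, 2.38 and 4.23 on the log2 scale. Among the kinases and RAS genes, MAP2K1 (0.08) did not pass, BRAF was 1.25 higher in KMS12-BM, and NRAS was at 235 CPM against 404 CPM. Of the PI3K genes, PIK3CG and PIK3R1 were higher in KMS12-BM by 2.33 and 1.72. Of 29 genes tested, 10 were called higher in KMS12-BM and 16 higher in JJN3, with a median of -0.30. Over all genes these shares were 38.2% and 40.3%.

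In the NF-kappaB list, most genes passed, in both directions, where 78.5% of all genes tested did. Of 29 genes, all tested, 12 were called higher in KMS12-BM and 16 higher in JJN3, with a median of -0.27. BIRC3, both a target and a brake of the pathway, was at 1137, 1383 and 1661 CPM in JJN3 and 60.7, 61.8 and 67.5 CPM in KMS12-BM (-4.46 ± 0.15, adjusted p = 6.86e-09). TNFAIP3, a feedback inhibitor, was at 396, 488 and 610 CPM against 30.2, 22.1 and 25.6 CPM, and CYLD, a deubiquitinase, at 130 CPM against 29 CPM. PLEK reached 23.1 CPM in JJN3 and 0.0732 CPM in KMS12-BM. Of the regulators of the alternative pathway, MAP3K14 was -0.65, NFKB2 -0.63 and TRAF3, which holds MAP3K14 down, 1.38, with 250 CPM in KMS12-BM and 95.9 CPM in JJN3. REL and RELB were higher in KMS12-BM by 2.63 and 1.10, and NFKB1 did not pass at -0.17. LTB and CD40 were the members most clearly higher in KMS12-BM. LTB, a lymphotoxin chain, was 55 CPM against 0.855 CPM, and the receptor gene CD40 was 6.45 CPM against 2 counts, a ratio of 290 (counting interval 79.9 to 2395).

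Tumour suppressors altered in myeloma were mostly higher in JJN3. Of 29 genes, all tested, 20 were called higher in JJN3 and 7 higher in KMS12-BM, with a median of -0.81. RB1, the brake that D-type cyclins release, was at 21.4, 21.9 and 19.5 CPM in KMS12-BM and 202, 185 and 203 CPM in JJN3 (-3.23 ± 0.08, adjusted p = 8.6e-10). Its relative RBL2 was 49 CPM against 221 CPM. CDKN2C, the inhibitor p18, was 116 CPM against 454 CPM. EGR1 averaged 1.16 CPM in KMS12-BM and 87.3 CPM in JJN3. KDM6A and CDKN1B were higher in KMS12-BM, by 1.11 and 0.72. CDKN2A overlapped, with 75.9 ± 19 CPM and 57.8 ± 6.85 CPM (SD, n = 3, adjusted p = 0.0659), and passed without KMS12-BM replicate 2 (adjusted p = 0.0159) and in DESeq2's Wald test (adjusted p = 0.0303). Its neighbour MTAP was read in both, at 122 CPM and 92.9 CPM.

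CDKN1A, the inhibitor p21, was at 83.6, 120 and 120 CPM in JJN3 and at 0.264, 0.624 and 0.48 CPM in KMS12-BM (-7.82 ± 0.25, adjusted p = 1.55e-08). The kinase partners of the D-type cyclins differed with them. CDK4 was at 524, 443 and 517 CPM in KMS12-BM and 164, 142 and 140 CPM in JJN3 (1.74 ± 0.10, adjusted p = 1.61e-07). CDK6 was at 185, 181 and 187 CPM in KMS12-BM and 398, 449 and 462 CPM in JJN3 (-1.24 ± 0.08, adjusted p = 3.26e-07). Of 34 cell-cycle and replication genes, all tested, 6 were called higher in KMS12-BM, 19 higher in JJN3 and 9 did not pass, with a median of -0.26. Over all genes 38.2% were called higher in KMS12-BM and 40.3% higher in JJN3. CCNE2, MCM3 and RRM2 were the furthest apart, lower in KMS12-BM by 2.73, 2.31 and 1.83 on the log2 scale, and MCM7 was higher there by 1.46. The proliferation marker MKI67 did not pass, with means of 492 CPM and 474 CPM.

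In the BCL2 family, which sets the threshold for cell death, more genes were higher in JJN3. The pro-survival gene BCL2 was at 228, 199 and 215 CPM in KMS12-BM and 247, 263 and 290 CPM in JJN3 (-0.32 ± 0.08, adjusted p = 0.00619). MCL1, also pro-survival, was at 255, 243 and 267 CPM against 468, 542 and 559 CPM (-1.04 ± 0.08, adjusted p = 2.41e-06). BCL2L1 overlapped, at 40.7 to 49.1 CPM and 41.1 to 43.3 CPM. Among the BH3-only genes, HRK was 26.3 CPM in KMS12-BM and 0.128 CPM in JJN3. PMAIP1 was 0.181 CPM against 72.9 CPM, and BID, BBC3 and BCL2L11 were also higher in JJN3, the last at 108 CPM against 64.1 CPM. BAK1, a pore-forming member, was higher in KMS12-BM by 1.24, and BAX and BMF did not pass. Of 18 tested, 4 were called higher in KMS12-BM, 10 higher in JJN3 and 4 did not pass. Over all genes 38.2% were called higher in KMS12-BM and 40.3% higher in JJN3.

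Glycolysis and hypoxia genes were higher in JJN3 as a group. Of 30 tested, 24 were called higher in JJN3, 2 higher in KMS12-BM and 4 did not pass, with a median of -0.99. The list's summed level was 15039 to 15176 CPM in KMS12-BM and 32145 to 36044 CPM in JJN3. GAPDH was at 3049, 2894 and 3215 CPM against 8107, 8228 and 9362 CPM, and GPI, ALDOA, PFKP, ENO1 and LDHA were lower in KMS12-BM by 1.57, 1.47, 1.75, 1.01 and 0.97 on the log2 scale. NDRG1, a hypoxia-responsive gene, was the extreme of the list at 1922, 1962 and 2218 CPM in JJN3 and 0.363, 0.168 and 0.461 CPM in KMS12-BM. HK1, a hexokinase, was one of the list's 2 genes called higher in KMS12-BM: it was at 104 CPM in KMS12-BM and 7.26 CPM in JJN3 (3.83 ± 0.09, adjusted p = 4.78e-10). ENO2, an enolase, was the other (0.46), and HK2, a hexokinase too, was higher in JJN3 (112 CPM against 149 CPM). ANKRD37 averaged 2.49 CPM against 18.8 ± 10.4 CPM (SD, n = 3), a wide spread within JJN3. The glucose transporter SLC2A1 and the lactate transporter SLC16A1 did not pass.

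Messengers of the mitochondrial genome ran the other way. Of 13, all tested, 10 were called higher in KMS12-BM, 1 higher in JJN3 and 2 did not pass, with a median of 1.0. MT-CO3, a subunit of cytochrome oxidase, was at 7935, 7028 and 7148 CPM in KMS12-BM and 1806, 2116 and 1592 CPM in JJN3 (2.0 ± 0.11, adjusted p = 1.69e-07). MT-ND3 and MT-ATP6 were higher by 1.88 and 1.76. MT-CO1, from the same polycistronic transcript, did not pass at 0.10, and MT-ND5 was 1435 CPM against 1725 CPM.

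Cholesterol synthesis and uptake genes were mostly higher in JJN3, the line grown in less serum. Of 25 tested, 18 were called higher in JJN3 and 6 higher in KMS12-BM, with a median of -0.74. INSIG1, the sterol-regulated brake of the pathway, was at 2602, 3147 and 3989 CPM in JJN3 and 212, 311 and 308 CPM in KMS12-BM (-3.55 ± 0.21, adjusted p = 1.04e-06). LSS, which forms lanosterol, was 49.7 CPM against 189 CPM and the regulator SREBF1 46.2 CPM against 123 CPM. TM7SF2 was at 103 CPM in KMS12-BM and 10.5 CPM in JJN3, and EBP and SC5D, also late enzymes of the pathway, were higher there by 0.93 and 0.41. The sterol exporter ABCG1 was 2.76 CPM against 0.22 CPM. The part of serum in these differences was not tested.

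Chaperone and proteasome genes, on which secretory cells lean, had medians near 0. Those called at least 2-fold higher in KMS12-BM made up 15.6% and 16.2% of the lists, against 19.8% of all genes. In JJN3 the shares were 6.25% and 8.11%, against 23.1% of all genes. Of 32 chaperone and unfolded-protein-response genes, all tested, 16 were called higher in KMS12-BM (5 by at least 2-fold) and 9 higher in JJN3 (2 by at least 2-fold), with a median of 0.20. HSPA5, the main chaperone of the endoplasmic reticulum, was 1302 CPM against 684 CPM, PDIA4 543 CPM against 201 CPM, and P4HB ran the other way at 330 CPM against 1285 CPM. DDIT3, the stress factor CHOP, was 18.2 CPM against 6.21 CPM. Of 37 proteasome subunit genes, the target of bortezomib among them, 14 were called higher in KMS12-BM (6 by at least 2-fold), 12 higher in JJN3 (3 by at least 2-fold) and 11 did not pass, with a median of 0.11. PSMB5, the subunit that bortezomib binds, was 150 CPM against 67.1 CPM. PSMC2 and PSMB7 were higher in KMS12-BM by 1.71 and 1.65.

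Genes by which myeloma drugs act were read in both lines. CRBN, the receptor of thalidomide analogues, was at 50.4, 65.5 and 57.3 CPM in KMS12-BM and 34.2, 34.9 and 34 CPM in JJN3 (0.75 ± 0.10, adjusted p = 7.13e-05). IKZF1, a substrate they bring to it, was at 747, 682 and 704 CPM against 93.2, 97.2 and 91.5 CPM (2.92 ± 0.07, adjusted p = 7.21e-10), while IKZF3 differed by -0.32. In the list of cereblon partners and substrates, 8 of 18 tested were called higher in KMS12-BM and 6 higher in JJN3. The shares over all genes were 38.2% and 40.3%. GLUL, a substrate that encodes glutamine synthetase, was 17.9 CPM against 183 CPM, and CUL4A, the scaffold of the ligase, 265 CPM against 82.5 CPM. Among drug efflux and detoxification genes, 5 of 17 were called higher in KMS12-BM and 10 higher in JJN3. GSTP1, a glutathione transferase, was at 1308 CPM in KMS12-BM and 6.93 CPM in JJN3, ABCC4, an exporter, at 0 counts and 27.1 CPM (at least 1109-fold lower), and GSTT1 at 2 counts and 11.5 CPM. ABCB1 had no read in either line.

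The targets of the compounds that the series tested were called in both directions, as were all genes (38.2% higher in KMS12-BM and 40.3% higher in JJN3). Of 17 CLK, DYRK, SRPK and related kinase genes, 6 were called higher in KMS12-BM and 8 higher in JJN3, with a median of -0.08. CLK2 was 67.3 CPM against 45.9 CPM, CLK4 4.77 CPM against 11.9 CPM, CSNK1E 402 CPM against 124 CPM and SRPK2 161 CPM against 49.8 CPM. CLK1 overlapped at 18.9 to 22.7 CPM and 22.6 to 26.6 CPM. Its call (-0.28 ± 0.10, adjusted p = 0.0301) was lost without either KMS12-BM replicate 1 or 2 or without JJN3 replicate 2 or 3 (adjusted p = 0.078 to 0.114). Of 14 amiloride targets tested, 8 were called higher in KMS12-BM (6 by at least 2-fold) and 5 higher in JJN3 (3 by at least 2-fold). SCNN1A, which encodes the alpha chain of the epithelial sodium channel, averaged 1.14 CPM in KMS12-BM and had 0 counts in JJN3 (at least 34.5-fold higher), and the beta subunit SCNN1B was at 2.45 to 3.07 CPM and 41.5 to 48.9 CPM. SLC9A9, a sodium-proton exchanger, was 2.86 CPM against 44.3 CPM, and SLC8B1, a mitochondrial sodium-calcium exchanger, 28.8 CPM against 2.4 CPM. PLAU, the protease urokinase that amiloride also inhibits, was 3.37 CPM against 0.642 CPM.

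Adhesion genes and surface antigens were called in both directions at shares near those of all genes (38.2% and 40.3%). Of 28 adhesion and homing genes tested, 11 were called higher in KMS12-BM and 14 higher in JJN3. CD9, a tetraspanin, was at 362, 355 and 318 CPM in KMS12-BM and had 6 counts in JJN3. SELPLG, ITGB1 and ITGB2 were higher there by 2.60, 1.61 and 3.06, and the chemokine receptor gene CXCR3 was 32.5 CPM against 0.279 CPM. CDH2, which encodes N-cadherin, was at 24.7 CPM in JJN3 and had 1 count in KMS12-BM, CD44 was 119 CPM against 217 CPM, and ITGA4, the partner of ITGB7, was 22.5 CPM against 85 CPM. CXCR4, the marrow-homing receptor, did not pass, with means of 137 CPM and 149 CPM (adjusted p = 0.107), and NCAM1 was near 0 in both. Among antigens used or proposed for antibody therapy, 9 of 22 were called higher in KMS12-BM and 10 higher in JJN3. CD52 and CD300A averaged 79.9 and 60.6 CPM in KMS12-BM against 0.141 and 0.697 CPM. FCRL5 and GPRC5D averaged 3.28 and 3.42 CPM in JJN3 and below 1 CPM in KMS12-BM.

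Cancer-testis antigens, germline genes that tumours can express again, leaned to KMS12-BM. Of 28, 10 had no read in any of the 6 libraries and 10 were tested, of which 9 were called higher in KMS12-BM and 1 higher in JJN3. CTAG2 was at 143, 105 and 111 CPM against 1.4, 1.19 and 1.17 CPM, and MAGEA3 at 103, 113 and 105 CPM against 11.6, 10.1 and 11.1 CPM. MAGEC1 averaged 3.47 CPM against 0.417 CPM. MAGEA6 was the exception, at 0.125 CPM in KMS12-BM and 17.4 CPM in JJN3. CTAG1B had 26 counts in KMS12-BM and 0 in JJN3, and PRAME was below 0.2 CPM in both. MAGEA3 and MAGEA6 are near-identical copies, so the division of reads between them is uncertain.

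Markers of other cell types were low or absent, with a few exceptions in each line. Of 29, 18 were not tested, and 9 had no read in any library, including the platelet gene PPBP, the granulocyte gene MPO and the liver gene ALB. The list's summed level was 141 to 162 CPM in KMS12-BM and 80.5 to 95 CPM in JJN3, most of it from EPCAM and KRT8 in KMS12-BM and from HBB and EPCAM in JJN3. EPCAM, an epithelial adhesion gene, was at 109 CPM against 23.6 CPM, and KRT8, a keratin, at 27.3 CPM against 0.156 CPM, while its usual partner KRT18 was at 0 and 0.139 CPM. T-cell and myeloid markers such as CD3D, LYZ and CSF1R stayed below 0.04 CPM. In all, 7 of the 11 tested were called higher in KMS12-BM and 3 higher in JJN3.

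The plot of gene lists sets these groups side by side. Among the lists plotted, the medians of genes linked to MAF, immunoglobulin constant genes and MHC class II lay below -3, and those of B-lineage genes, cancer-testis antigens and markers of other cell types lay above 3. The lists of proteasome subunits, TG003 targets, cereblon partners and surface antigens had medians within 0.11 of 0.

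**Figure D3:**
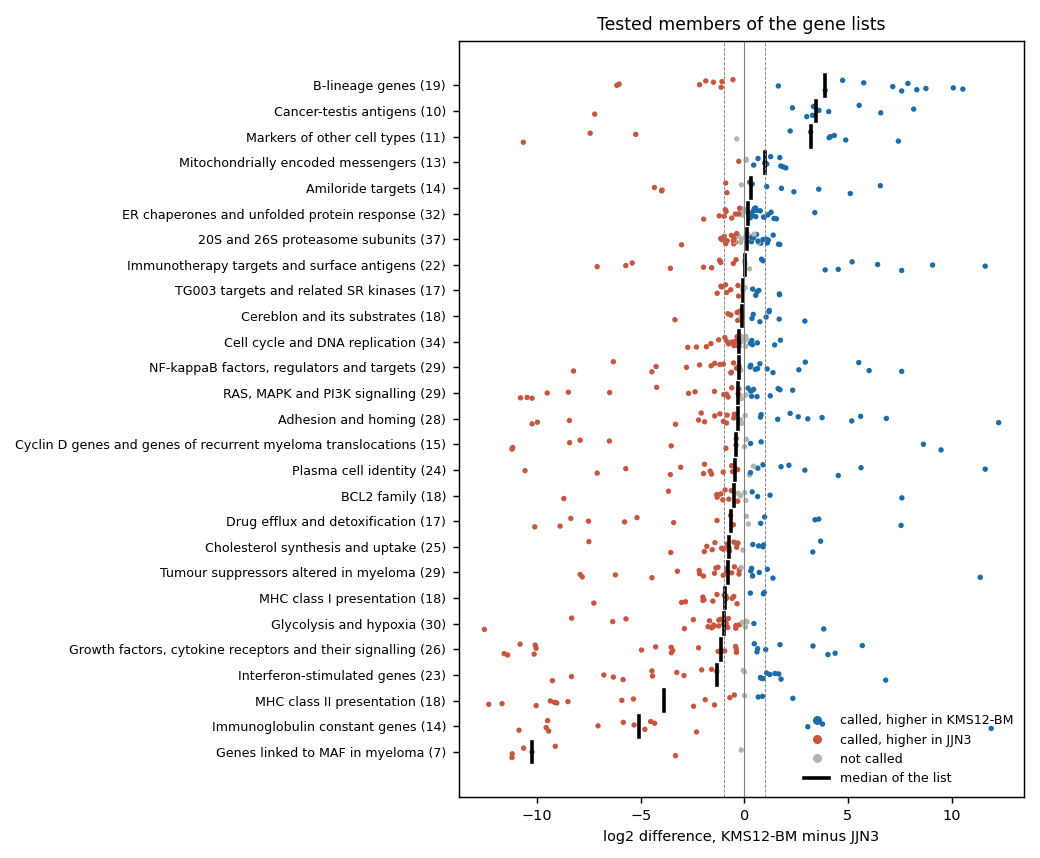
Log2 difference (KMS12-BM minus JJN3) of every tested member of the gene lists, with the number tested in brackets and the median as a black bar. Blue and red points were called higher in KMS12-BM or JJN3, grey points were not called, and genes at or below 3 counts in a line are drawn at their bound. The medians run from -10.24 (genes linked to MAF) to 3.90 (B-lineage genes).

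By fitted difference, which depends on the prior count where a line has 0 counts, the genes furthest apart were mostly at 0 counts in the other line. NDRG1 (2034 CPM in JJN3 against 0.331 CPM) and CD9 (345 CPM in KMS12-BM against 0.0629 CPM), with reads in both lines, had measured ratios larger than any bound given here. Higher in KMS12-BM were SEPTIN14, a septin cytoskeleton gene (66.2 CPM, at least 2012-fold), LIN28B, which blocks maturation of let-7 microRNAs (48.5 CPM, at least 1465-fold), LDLRAD2 (at least 732-fold), SHTN1 (at least 615-fold), CD300LB (at least 578-fold), LCN8 (at least 447-fold), CNKSR2 (at least 397-fold), CFAP92 and SLFN11, a gene tied to sensitivity to DNA damage (each at least 394-fold). COL6A3, a collagen chain, reached 154, 173 and 169 CPM and had 2 counts in JJN3, a ratio of 7526 (counting interval 2083 to 62153), and PASD1, a testis antigen, 61.1 CPM and 1 count. Higher in JJN3, with 0 counts in KMS12-BM, were the protease gene CTSO (62 CPM, at least 2558-fold), SLCO4C1 (at least 1954-fold), RAPGEF5 (at least 1776-fold), ST8SIA2 (at least 1741-fold), the desmosome gene PKP2 (at least 1717-fold), NKD2 (at least 1687-fold), SLITRK5 (at least 1683-fold), the growth factor gene PDGFC (at least 1635-fold), LAYN (at least 1580-fold), TLE1 (at least 1530-fold), SH2D4A (at least 1502-fold), MID1IP1 (at least 1482-fold), ZNF703 (at least 1288-fold) and OTULINL (at least 1212-fold). These bounds divide a line's counts, summed over its libraries and so weighted by depth, by a floor of 3 counts in the other line's 3 libraries, 0.0242 CPM in KMS12-BM and 0.0332 CPM in JJN3. Among long noncoding RNAs, DSCR8, TBX5-AS1, LINC00839 and LINC01287 were read at 20.7 to 86.8 CPM in KMS12-BM with 0 to 3 counts in JJN3. ITGB8-AS1, AFAP1-AS1, BHLHE22-AS1 and LINC00511 were read at 20.5 to 209 CPM in JJN3 with 0 to 10 counts in KMS12-BM.

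More genes were read in JJN3 alone than in KMS12-BM alone under the rule used here, a mean of at least 10 CPM in a line and at most 3 counts over the other line's 3 libraries. It found 257 such genes in JJN3, 236 of them protein-coding, and 68 in KMS12-BM, 54 of them protein-coding. Counts allow a lower level to be seen in KMS12-BM, which was the more deeply sequenced line, so the rule was the stricter one for JJN3 genes. Of these genes, 84 of the 257 and 21 of the 68 had 0 counts in the other line. The most abundant of the protein-coding genes read in KMS12-BM were COL6A3 (165 CPM), PTPRCAP, a partner of the phosphatase CD45 (142 CPM), the kinase PRKG1 (73.1 CPM), SEPTIN14, PASD1, the cadherin CDH8 (51.5 CPM), PAX5 and PRXL2A (49.5 CPM). Those read in JJN3 were the pentraxin NPTX1 (131 CPM), the connexin GJB2 (116 CPM), UBE2QL1 (99.6 CPM), EMP2 (92.7 CPM), the neural factor OLIG1 (91.1 CPM), IMPACT (89.3 CPM), the phosphodiesterase PDE4D (87.2 CPM) and LRATD2 (80.6 CPM).

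Some of these genes lay side by side. With protein-coding genes of at least 1 CPM in either line ordered along each chromosome (11675 genes), 595 were read in JJN3 alone and 213 in KMS12-BM alone at the same limit of 3 counts. Runs of at least 3 neighbours numbered 22 for JJN3, with 75 genes, and 3 for KMS12-BM, with 12 genes. The order and the limit of 1 CPM were chosen after the values were seen. The longest runs of JJN3 held 6 genes, among them GUCY1A1, GUCY1B1, TDO2, CTSO, PDGFC and GLRB at 156587878 to 158093242 of chromosome 4 (GRCh37). In KMS12-BM the longest were parts of homeobox clusters, which pattern the body axis and mark blood progenitors. HOXA3, HOXA4, HOXA5, HOXA6 and HOXA10, at 27145803 to 27219880 of chromosome 7, reached 2.6 to 12.1 CPM with 0 counts in JJN3, HOXA10 at least 358-fold higher. HOXB3, HOXB4, HOXB6 and HOXB7 on chromosome 17 reached 4.46 to 16 CPM with at most 2 counts. None of the HOXC genes reached 1 CPM in either line.

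The beta-globin cluster on chromosome 11, whose genes encode the oxygen carrier of red cells, was read in JJN3. Of 5 genes, 4 reached 1 CPM in JJN3 and none in KMS12-BM. HBB was at 63.7, 48.5 and 61.1 CPM in JJN3 with 4 counts in KMS12-BM, HBG2 at 30.5 CPM with 0 counts (at least 1236-fold) and HBD at 39.5 ± 10.3 CPM (SD, n = 3) with 1 count. HBA1, of the alpha-globin cluster on chromosome 16, ran the other way, at 10.4 CPM in KMS12-BM and 0.356 CPM in JJN3. PEG10 and SGCE, imprinted neighbours on chromosome 7, were at 407 and 19.2 CPM in JJN3, with 31 counts and 1 count in KMS12-BM.

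Whole chromosomes leaned to one line or the other. The median difference was lowest on chromosome 4 (-0.89, 433 of 623 tested genes called higher in JJN3 and 87 higher in KMS12-BM), chromosome 18 (-0.68) and chromosome 5 (-0.58). It was highest on chromosome 9 (0.58, 385 of 625 called higher in KMS12-BM), chromosome 12 (0.55) and chromosome 7 (0.50). Chromosomes 2, 3, 6, 10, 19 and 20 lay within 0.09 of 0. The same medians in the TG003 libraries were -0.92 on chromosome 4, -0.68 on chromosome 18, -0.64 on chromosome 5, 0.63 on chromosome 9, 0.56 on chromosome 12 and 0.61 on chromosome 7.

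Within chromosomes the lean could change. In windows of 10 Mb with at least 20 tested genes, 153 of 269 medians lay within 0.5 of 0, 18 were at or below -1 and 7 at or above 1. On chromosome 7 the windows from 0 to 10 Mb and from 10 to 20 Mb had medians of -1.20 and -1.78, and those from 40 to 50 Mb, 100 to 110 Mb and 140 to 150 Mb had medians of 1.23, 1.31 and 1.42. The highest median was 2.64, at 130 to 140 Mb of chromosome 10, where 17 of 23 genes were called higher in KMS12-BM and 1 higher in JJN3. On chromosome 13 the window from 110 to 120 Mb, which holds CUL4A, had a median of 1.63. The window of chromosome 1 from 50 to 60 Mb, which holds CDKN2C, had a median of -1.0. The cause of these leans was not tested.

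**Figure D4:**
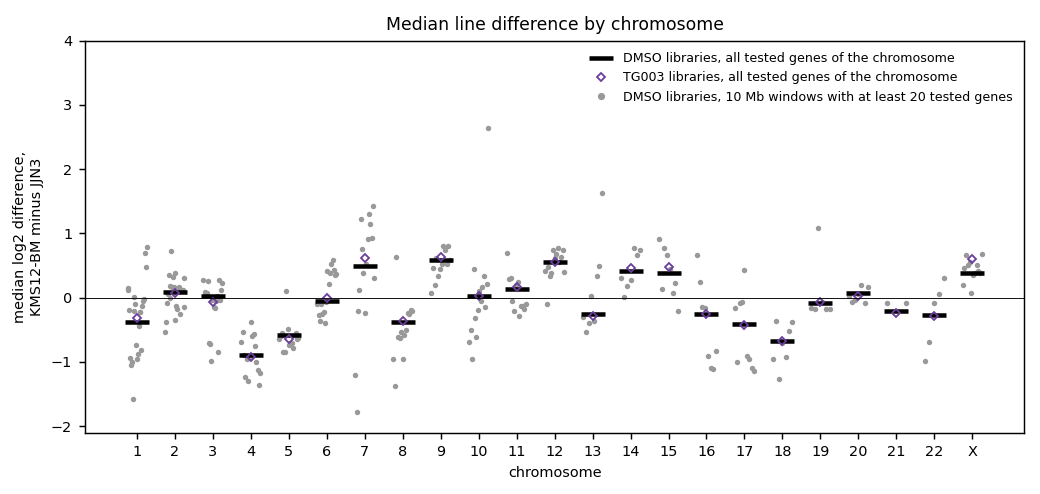
Median log2 difference (KMS12-BM minus JJN3) of the tested genes on each chromosome in the DMSO libraries (black bars) and the TG003 libraries (diamonds), with the medians of 10 Mb windows of the DMSO libraries as grey points. Chromosomes 4, 5 and 18 lie below 0 in both sets, 9, 12 and 7 above, and chromosome 7 has windows from -1.78 to 1.42.

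Most line differences were also called in libraries that the comparison did not use. With TG003 at 0.4 mM in both lines, 12784 of 15273 genes (83.7%) were called between the lines, in libraries whose read composition differed from the rest, as given at the start. Of the 6958 genes at least 2-fold apart with DMSO, 6418 were tested there, 6275 of them (97.8%) were called in the same direction and 16 (0.249%) in the opposite one. With amiloride, at doses that differ between the lines, 13026 of 16409 genes (79.4%) were called. There 6560 of the 6958 were tested, 5976 (91.1%) were called in the same direction and 128 (1.95%) in the opposite one.

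Levels of the lines can be set side by side within a condition, although serum differed between them throughout and, with amiloride, the dose as well. A change from one condition to another was not tested, and for TG003 it cannot be told apart from the different read composition. CCND1 averaged 920 CPM in KMS12-BM against 1.25 CPM in JJN3 with DMSO, 566 CPM against 0.918 CPM with TG003 and 982 CPM against 1.86 CPM with amiloride. MAF averaged 697 to 844 CPM in JJN3 and at most 0.358 CPM in KMS12-BM in the 3 conditions. Of the genes plotted by condition, MT-CO3, a mitochondrial messenger, was the one whose order turned. It averaged 7370 CPM in KMS12-BM against 1838 CPM in JJN3 with DMSO, 6456 CPM against 1825 CPM with TG003, and 91.7 CPM against 489 CPM with amiloride, at 0.1 mM and 0.4 mM.

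**Figure D5:**
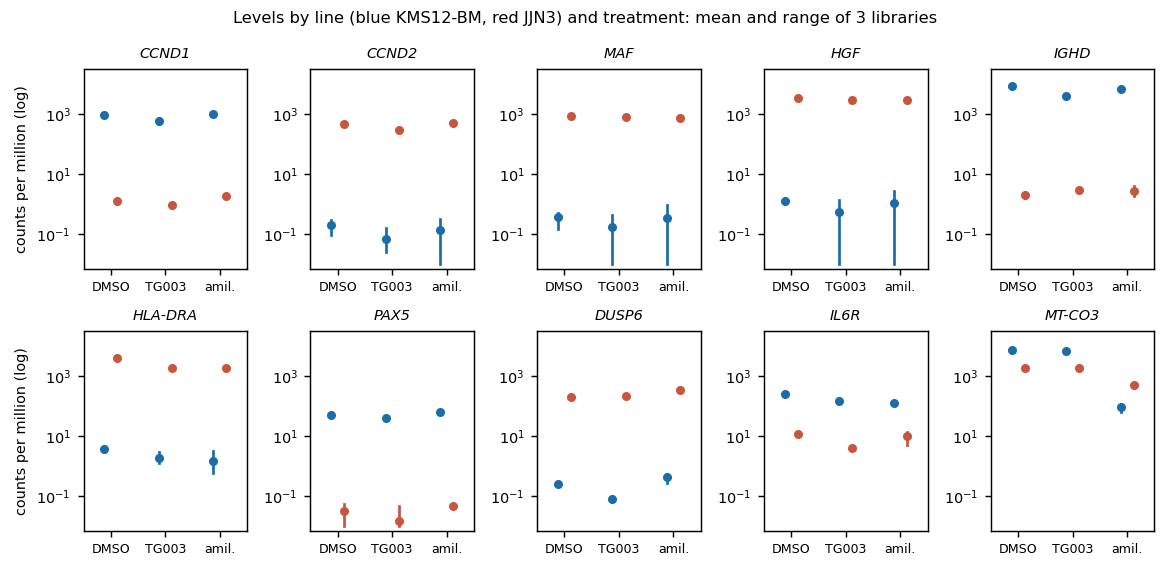
CPM (log axis, 0 drawn at 0.01) of 10 genes in KMS12-BM (blue) and JJN3 (red) with DMSO, TG003 and amiloride, as the mean (point) and range (line) of 3 libraries. The order of the lines is the same under all 3 conditions for CCND1, CCND2, MAF, HGF, IGHD, HLA-DRA, PAX5, DUSP6 and IL6R, and turns for MT-CO3 with amiloride, where the doses differ (91.7 CPM against 489 CPM).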

How the data were processed

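RNA from 18 samples was sequenced as strand-specific libraries, per the labels' protocols. Per the submitters' processing notes, the authors used cutadapt 1.4, TopHat2 2.0.11, hg19 and HTSeq 0.6.1p1. The counting's strand setting and gene annotation were not stated in the sources used here. The deposited files hold raw whole-number counts for 57905 Ensembl genes per sample. The HTSeq summary lines were left out of library sizes; reads in no gene were 11.4% to 12.4% of the records in the DMSO libraries, and reads at more than 1 place 16.1% to 17.4%. The deposited normalized tables were not used.

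Symbols and GRCh37 coordinates were joined by identifier (43521 had a symbol). The 6 DMSO libraries were fitted with edgeR 4.0.16 in R 4.3.3 (filterByExpr with a minimum count of 10 and 15 in total, TMM, robust quasi-likelihood F test, Benjamini-Hochberg). The standard error is the log2 difference divided by the square root of F. The TG003 and amiloride libraries were fitted alike. The test was also run on simulated counts in which a small share of genes was changed. That setting differs from these data, where most genes were called, so it does not show how the test behaves here. For genes at 0 in a line the bound takes 3 counts in its 3 libraries together as the floor. Such floors and intervals cover counting error only, as the reads carry no molecular identifiers. Motifs were searched in RefSeq promoters (GRCh38.p14).

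Alternatives were DESeq2 1.42.0 (size factors, Wald test), upper-quartile factors, limma 3.58.1 voom, other filters, removal of the most abundant genes, a replicate block, fits with more samples, and each replicate left out. The comparison, the 28 gene lists (659 of 668 symbols matched) and the rule for named genes were chosen with earlier results of these data known. Named by rule were a list of myeloma genes, the 15 protein-coding genes and 4 long noncoding RNAs furthest apart in each direction (adjusted p under 0.05, a mean of at least 5 CPM, ranges that do not overlap), the 3 called members of at least 5 CPM furthest apart in each list, and the 8 most abundant protein-coding genes read in each line alone. Other genes named were chosen after their values were seen. Some genes and 1 list are not reported here.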

Additional observations from a re-analysis of the deposited data

How the results depend on the processing

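The 12732 genes called between the lines became 11310 with a filter of 1 CPM and 14674 with no filter, and 12246 to 13123 when 1 replicate was left out. The 6958 genes at least 2-fold apart became 5665 and 8996 with the same filters, 5814 when tested against a 2-fold difference, and 7042 to 7369 when 1 replicate was left out. DESeq2's Wald test gave 12481 and 6907 genes, and limma voom 12709 and 6983. Same-numbered libraries of the lines correlated at 0.06, 0.028 and 0.004 in their deviations from the group means, so the numbers were not taken to pair the samples, and a replicate block gave 12627 genes called and 6973 at least 2-fold apart. Under the block, CDKN2A passed (0.37, adjusted p = 0.0358). Counts of genes read in 1 line alone depended on the limits: 21 for KMS12-BM and 84 for JJN3 at 0 counts in the other line, and 348 and 725 at a level of 1 CPM. The share of windows with a median at or above 1 was 2.6% at 10 Mb and 4.68% at 5 Mb. Of 3028 values for 190 named genes under the alternatives, 3012 kept direction and call, 8 lost a call, 8 gained one and none turned. These changes fell on IRF4, CLK1, DEPTOR, TNFRSF17 and CDKN2A. Many of the 190 genes were named because they were called with large differences in these same samples. Few changes were therefore to be foreseen, and the count does not speak for genes with small differences. Of 896 list counts, 883 stayed within 1.5 times. Depth limits genes at a few counts, where a line is given a floor or a counting interval in place of a fitted fold. Serum and line differ together and cannot be told apart.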
